A study of Mus musculus with 9 samples.

Results

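The interleukin genes were taken as the protein-coding mouse genes whose symbol is Il followed by a digit, and 83 of 21887 protein-coding genes of the mm10 annotation met this rule. They comprised 39 ligand genes, 41 receptor genes and 3 others, namely Il18bp, which encodes a secreted binder of IL-18, and Il4i1 and Il4i1b, of which Il4i1 encodes an amino acid oxidase induced by IL-4. Symbols are those of the annotation, in which the IL-36 cytokines Il36a, Il36b, Il36g and Il36rn appear as Il1f6, Il1f8, Il1f9 and Il1f5.

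H3K27me3, trimethylation of lysine 27 on histone H3, was profiled by chromatin immunoprecipitation and sequencing in 8 libraries from mouse bone marrow enriched for lineage-negative, c-Kit-positive cells, the fraction that holds haematopoietic stem and progenitor cells. All mice were C57BL/6 and carried the Mx1-cre transgene, which expresses Cre recombinase from an interferon-responsive promoter that is active in many cell types of the animal and not in blood cells alone. Wild-type (WT) mice were Dnmt3a+/+, and mutant (RH) mice carried a floxed allele with the R878H change in the DNA methyltransferase gene Dnmt3a (Dnmt3afl-R878H/+). The wild-type controls thus carried Cre as well. Uncultured cells were taken from transplanted females after 1 month of vehicle (VEH) or metformin (MET). The hosts, the induction of Cre, the age of the animals and any pooling of animals per library are not described in the sources used here. Each of the 4 groups, WT VEH, WT MET, RH VEH and RH MET, had 2 libraries, and 1 input library was sequenced beside them and not analysed here.

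Interleukins are secreted signals by which blood and stromal cells instruct one another. Type I receptors pass the signal through JAK kinases and STAT factors, IL-1 family receptors through the adaptor MyD88, and IL-17 receptors through an adaptor of their own. H3K27me3 is laid down by Polycomb repressive complex 2 over silent or poised genes, often in broad domains around promoters rich in CpG dinucleotides. Lineage-restricted cytokine loci in T cells are a classical example of genes that gain and lose the mark with cell identity.

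The deposited data are intervals of enriched signal called in each library, with a summit height per interval. A library called a gene if at least 1 bp of its span, from the lowest to the highest annotated base, lay under an interval, and the cover of the gene is the percent of that span under intervals. Libraries held 11620 to 16879 intervals over 80.0 to 186 Mb. The library RH VEH 1 stood apart at the low end, with 80.0 Mb covered against 122 to 186 Mb in the others and a median summit height of 12 against 14 to 17. Read numbers are unknown, so an absent interval can mean a mark below the caller's limit. Actb and Gapdh, housekeeping genes, carried no interval in any library, while Hoxd11, a Polycomb target of the Hox clusters, was fully covered in all 8. Of 10 genes that mark progenitors, 2 (Gata2 and Flt3) were called in all 8 libraries and 3 (Runx1, Ptprc and Cd48) in none. Of 10 genes of the mature lineages that the enrichment removes, Cd3e and Cd4 were called in all 8 and the other 8 in none. Of 8 stromal and endothelial genes, 4 (Col1a1, Lepr, Cxcl12 and Pdgfrb) were called in all 8. Over all protein-coding genes, 24.8% were called in all 8 and 60.7% in none. These calls record a histone mark and not RNA, so they do not measure which cells were present.

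The promoters of 7 genes show how far these starts differ in CpG content and in the mark. Each line holds 250 bases before and 50 after a start listed by RefSeq (GRCm38.p6, the patch release of mm10), read 5′ to 3′ on the gene's own strand, with every CG dinucleotide in capitals. Il6st, the shared signalling chain gp130 (chr13:112463820-112464119, + strand), and Il17rd, a receptor-like inhibitor of growth factor signalling (chr14:27038751-27039050, + strand), had the mark over the start in all 8 libraries. Il3ra, the IL-3 binding chain (chr14:14346245-14346544, + strand), had it in none. Il13 (chr11:53634653-53634952, − strand) and Il4 (chr11:53618616-53618915, − strand), neighbouring type 2 cytokine genes with few CG dinucleotides, had it in 7 libraries and in none. Il4ra, the signalling chain for IL-4 and IL-13 (chr7:125552021-125552320, + strand), and Il20ra, a chain of the IL-20 receptor (chr10:19712337-19712636, + strand), are shown because an interval over the start was present in some groups and absent in others.
Il6st: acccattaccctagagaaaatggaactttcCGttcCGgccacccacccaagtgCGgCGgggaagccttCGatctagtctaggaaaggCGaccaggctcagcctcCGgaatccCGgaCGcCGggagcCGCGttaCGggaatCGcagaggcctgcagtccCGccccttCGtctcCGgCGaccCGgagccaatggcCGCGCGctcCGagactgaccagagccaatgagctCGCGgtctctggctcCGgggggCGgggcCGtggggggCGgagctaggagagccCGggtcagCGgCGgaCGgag
Il17rd: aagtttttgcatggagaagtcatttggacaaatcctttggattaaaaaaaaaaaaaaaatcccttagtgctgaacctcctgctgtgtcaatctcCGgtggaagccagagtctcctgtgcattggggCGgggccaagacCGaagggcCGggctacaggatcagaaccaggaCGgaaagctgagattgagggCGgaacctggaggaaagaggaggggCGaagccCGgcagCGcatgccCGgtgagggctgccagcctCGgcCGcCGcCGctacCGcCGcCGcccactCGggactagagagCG
Il3ra: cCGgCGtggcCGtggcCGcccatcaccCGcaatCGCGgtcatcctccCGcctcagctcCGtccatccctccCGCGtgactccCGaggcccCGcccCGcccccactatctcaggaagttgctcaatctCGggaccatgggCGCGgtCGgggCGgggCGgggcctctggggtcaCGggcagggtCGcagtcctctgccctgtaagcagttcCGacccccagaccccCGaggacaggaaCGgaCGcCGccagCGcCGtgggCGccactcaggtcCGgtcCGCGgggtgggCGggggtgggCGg
Il13: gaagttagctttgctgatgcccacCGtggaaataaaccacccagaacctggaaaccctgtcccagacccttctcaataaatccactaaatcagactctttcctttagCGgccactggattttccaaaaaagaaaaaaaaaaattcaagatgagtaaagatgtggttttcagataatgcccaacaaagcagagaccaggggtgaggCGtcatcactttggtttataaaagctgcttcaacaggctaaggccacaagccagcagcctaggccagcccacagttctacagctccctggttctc
Il4: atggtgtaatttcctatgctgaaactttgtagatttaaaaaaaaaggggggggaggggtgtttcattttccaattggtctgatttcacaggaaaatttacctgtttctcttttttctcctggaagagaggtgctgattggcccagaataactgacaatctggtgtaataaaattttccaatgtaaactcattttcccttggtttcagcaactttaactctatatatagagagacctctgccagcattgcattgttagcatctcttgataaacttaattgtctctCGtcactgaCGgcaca
Il4ra: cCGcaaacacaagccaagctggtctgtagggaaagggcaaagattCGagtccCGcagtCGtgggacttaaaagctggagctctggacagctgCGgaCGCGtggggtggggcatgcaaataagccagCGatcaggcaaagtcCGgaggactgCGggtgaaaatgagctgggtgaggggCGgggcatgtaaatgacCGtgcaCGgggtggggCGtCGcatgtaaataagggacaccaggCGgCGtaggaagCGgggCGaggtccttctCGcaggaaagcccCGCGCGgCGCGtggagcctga
Il20ra: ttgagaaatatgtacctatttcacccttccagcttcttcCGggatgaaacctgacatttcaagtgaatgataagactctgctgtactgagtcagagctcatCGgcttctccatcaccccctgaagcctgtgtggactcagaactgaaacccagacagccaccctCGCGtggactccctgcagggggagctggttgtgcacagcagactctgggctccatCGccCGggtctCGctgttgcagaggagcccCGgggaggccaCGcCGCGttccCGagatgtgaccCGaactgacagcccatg

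Interleukin genes were marked about as often as other genes. Of the 83, 20 (24.1%) were called in all 8 libraries, against 24.8% of all protein-coding genes, 19 (22.9%) in 1 to 7 libraries, against 14.4%, and 44 (53.0%) in none, against 60.7%. Among 62 chemokine ligand and receptor genes, chosen as another secreted-signal family, 9 (14.5%) were called in all 8 and 42 (67.7%) in none. Of the 39 interleukin genes called in at least 1 library, 14 had a region that also overlapped another coding gene. Over all libraries these genes had 238 calls, and a summit lay inside the gene in 180 of them. In bulk chromatin, the mark in fewer cells and less of the mark in each cell cannot be told apart, and this holds for every value below.

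**Figure D1:**
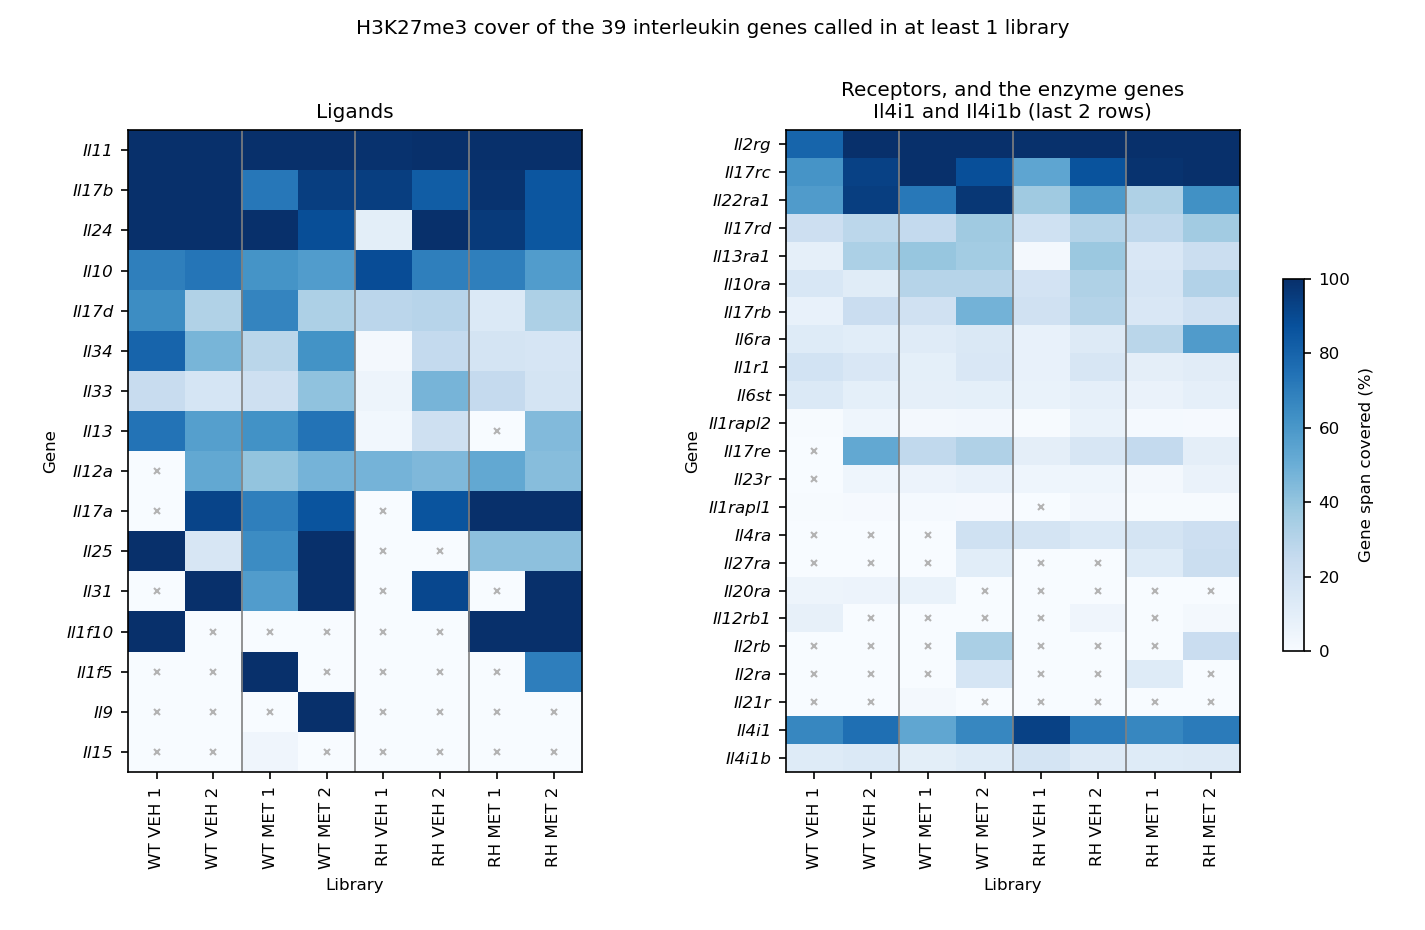
Percent of the gene span under H3K27me3 intervals (colour) for the 39 interleukin genes called in at least 1 library (rows) in each of the 8 libraries (columns); a cross marks a library without an interval. Il11 was covered over 99.0% to 100% of its span in all 8 libraries, while Il9 and Il15 each had an interval in 1 library.

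The 7 of 39 ligand genes called in all 8 libraries (17.9%, against 24.8% of all protein-coding genes) were Il24, Il10, Il11, Il34, Il17d, Il17b and Il33. Il11, a cytokine that signals through gp130 (chr7:4772373-4782907), had the highest mean cover, 99.9% ± 0.359 (SD, n = 8), and its summit heights of 43 to 101 lay at or above the 94.7 percentile of intervals in the same library. Il17b, an IL-17 family cytokine on chromosome 18, was covered by 72.5% to 100%. Il24, an IL-10 family cytokine (chr1:130882074-130887411), was covered by 85.0% to 100% in 7 libraries and by 9.87% in RH VEH 1. A summit lay inside Il24 in only 1 of the 8 libraries. Of its merged region, which also overlapped Fcmr, 38.1% lay inside Il24. Il10, which restrains inflammation (chr1:131019845-131024970), was covered by 57.7% to 88.9% (mean 68.4% ± 10.2, SD, n = 8), with its highest cover in RH VEH 1. In the library with the least mark, cover was thus highest at Il10 and lowest at Il24, genes of the same cluster. Il17d, another IL-17 family member, had cover of 14% to 67.5% of 18.3 kb and summit heights of 33 to 100. All 8 libraries called a 10.6 kb region over its start, and WT VEH 1 and WT MET 1 also called a region further inside. Il33, an alarmin released by damaged barrier cells, had cover of 4.74% to 46.9% at summit heights of only 8 to 22.

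Ligands without any interval numbered 23 of 39 (59.0%, against 60.7% of all protein-coding genes). They included the T-cell growth factor Il2 and its neighbour Il21, the lymphoid survival factor Il7, the type 2 cytokines Il4 and Il5, the myeloid growth factor Il3 and the inflammatory cytokines Il6, Il1a, Il1b, Il18 and Il12b. The others were Il17f, Il17c, Il20, Il19, Il22, Il1f6, Il1f8, Il1f9, the IL-1 receptor antagonist Il1rn, Il16, Il27 and Il23a. The nearest interval lay 17.8 to 20.0 kb from Il2 over the 8 libraries, 13.5 to 17.1 kb from Il4 and 75.2 to 81.4 kb from Il6. Il3 had an interval 0.322 to 34.3 kb away. By family, 1 of 10 IL-1 family ligands was called in all 8 libraries (Il33), and none of 6 common gamma chain ligands. It was 1 of 7 in the IL-6 and IL-12 group (Il11), 2 of 5 IL-10 family ligands (Il24 and Il10) and 2 of 6 IL-17 family ligands (Il17d and Il17b). The share over all protein-coding genes was 24.8%, and these small families were not tested against it.

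Among receptors, 11 of 41 were called in all 8 libraries: Il1r1, Il6ra, Il22ra1, Il17rc, Il10ra, Il6st, Il17rd, Il17rb, Il13ra1, Il2rg and Il1rapl2. Among the 4 receptor families the IL-17 receptors held the highest share, with 3 of 5 called in all 8 (Il17rc, Il17rd and Il17rb). Il17re was called in 7, and Il17ra, the chain common to most IL-17 receptors, in none. With only 5 genes this order is a description and was not tested against the share of all genes. Il17rb lay in a 10.4 kb region shared with Chdh and had a summit inside the gene in 2 of the 8 libraries. Il17rd (chr14:27038964-27107286) was covered by 20.3% to 36.9%, with summit heights of 36 to 98. Il17rc, the partner chain of Il17ra for IL-17A and IL-17F, was covered by 53.9% to 100%, and Il17re lies in the same 20.0 kb region. Il22ra1, the binding chain for IL-22 (chr4:135728159-135755383), was covered by 32.4% to 97.1% as a part of a 62.0 kb region that also holds Myom3. Il6st (chr13:112464070-112506860) was marked over its start, in a merged region of 14.4 kb of which 41.2% lay inside the gene. Of its 42.8 kb, 8.95% ± 2.25 (SD, n = 8) was covered, with summit heights of 23 to 61. Il6ra, the IL-6 binding chain (chr3:89869324-89913196), had 7.74% to 58.1% covered, and Il10ra, the IL-10 binding chain, 11.4% to 32.3%. Il1r1, the signalling receptor for IL-1 (chr1:40222480-40316201), had 7.68% to 18.4% covered by an interval inside the gene.

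Receptors with no interval in any library numbered 20 of 41 (48.8%, against 60.7% of all protein-coding genes). They included Il7r, required for lymphoid development, Il3ra and Il5ra of the myeloid receptors that share a beta chain, Il9r, Il15ra, the beta-2 chain of the IL-12 receptor Il12rb2, the IL-11 binding chains Il11ra1 and Il11ra2, Il31ra and the decoy Il13ra2. The IL-1 receptor family gave 6 of its 9 genes to this class: the decoy Il1r2, Il1rl2, Il1rl1 (the IL-33 receptor ST2), the IL-18 receptor genes Il18r1 and Il18rap, and the shared accessory chain Il1rap. Il17ra, Il20rb, Il22ra2 and Il10rb complete the class. From Il7r the nearest interval was 537 to 646 kb away, and from Il3ra 438 to 1081 kb, so these genes lay in long stretches without a call. None of these distances was tested against other genes.

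Receptors were called more often than ligands and covered less. In all 8 libraries 26.8% of receptors, 17.9% of ligands and 24.8% of all protein-coding genes were called. The mean cover was 10.9% for receptors, 19.6% for ligands and 12.5% for all protein-coding genes. The median span was 32.4 kb for receptors, 6.60 kb for ligands and 17.2 kb for all genes, and a longer span is both likelier to meet an interval and harder to fill. Within length classes the order was not constant. Up to 10 kb, 3 of 26 ligands and 1 of 3 receptors were called in all 8 libraries, against 16.7% of all genes of that length. From 10 to 50 kb it was 3 of 10 ligands and 6 of 27 receptors, against 22.4% of all genes. Above 50 kb it was 1 of 3 and 4 of 11, against 42.5%. These counts describe the lists, and the difference between ligands and receptors was not tested.

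**Figure D2:**
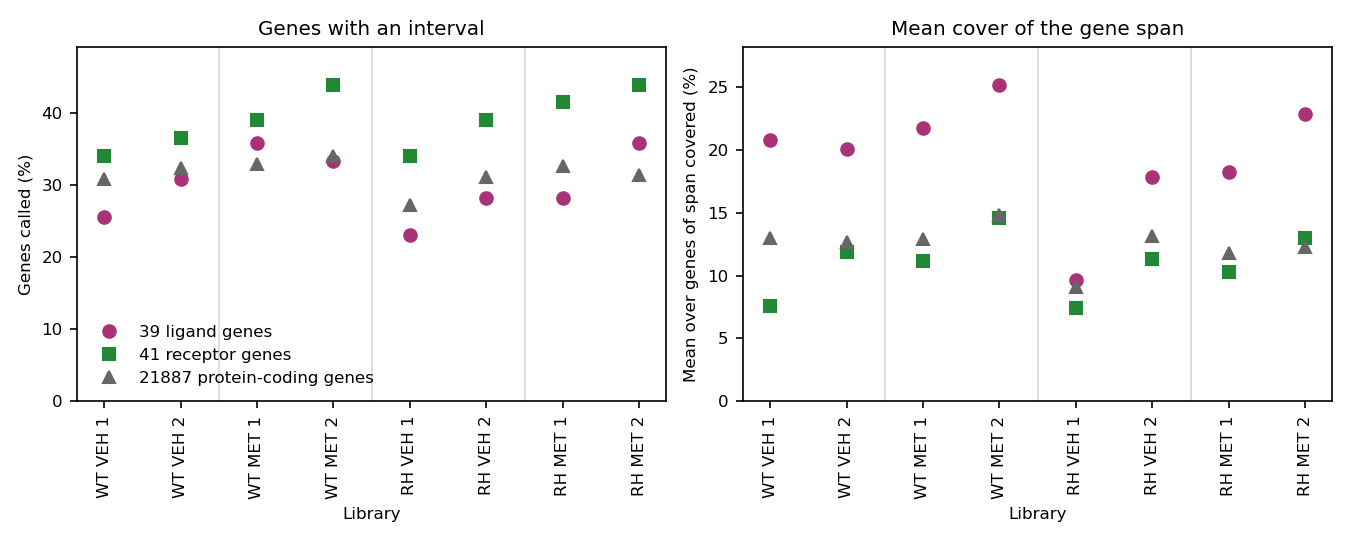
Left, percent of ligand genes (circles), receptor genes (squares) and all protein-coding genes (triangles) with an interval in each library; right, mean percent of the gene span covered over the same genes. Receptors lie above ligands on the left in all 8 libraries (34.1% to 43.9% against 23.1% to 35.9%) and below them on the right (7.42% to 14.6% against 9.68% to 25.2%).

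Per library, 25 to 34 of the 83 genes were called. The counts were 26 and 29 in WT VEH, 32 and 33 in WT MET, 25 and 29 in RH VEH, and 30 and 34 in RH MET. Both metformin groups thus lay above both vehicle groups in this count. When every library was limited to its 11620 highest intervals, the counts became 25 and 27, 28 and 32, 25 and 29, and 26 and 33, and the groups overlapped. Over all protein-coding genes the share called was 30.8% and 32.4% in WT VEH, 32.9% and 34.0% in WT MET, 27.2% and 31.1% in RH VEH, and 32.6% and 31.4% in RH MET, and the number of intervals moved with it. The part of that number in the members' counts was not tested beyond the limit to equal numbers.

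Starts and CpG content were compared for the 66 interleukin genes that the RefSeq promoter table lists, with 81 starts. The median number of CG dinucleotides in 300 bases was 4 for interleukin starts and 13.0 for all 21263 listed starts. An interval lay over the same start in all 8 libraries for 12 of the 66 genes, against 19.3% of all listed genes. Interleukin starts covered in all 8 libraries had a median of 17.5 CG dinucleotides, against 19.0 over all starts. Those covered in none had 4, against 10. The 17 interleukin starts (21.0%) covered in 1 to 7 libraries had a median of 3, against 11 over all such starts (13.2%). The median of these partly covered interleukin starts thus did not exceed that of the uncovered ones. With 13 or more CG dinucleotides, 9 of 17 interleukin starts (52.9%) were covered in all 8 libraries, against 25.6% of all such starts. Below 13 it was 3 of 64 (4.69%), against 12% of all starts.

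Of the 17 starts with 13 or more CG dinucleotides, 13 belonged to receptors and 3 to ligands, and 7 of the 13 (53.8%) and 2 of the 3 (66.7%) were covered in all 8 libraries. Il6st held 33 CG dinucleotides, Il17rb 32, Il13ra1 28, Il6ra 25 and Il17rd 19, all covered in 8 libraries, as was the ligand Il17d with 19. Il3ra held 35 and Il1rap 33 and neither had an interval, nor did Il1r2 with 16 and Il15ra with 15. Il4i1b is a further exception, with 34 at a start that no interval covered, although 9.84% to 17.2% of its span was marked, in a 7 kb region over the overlapping gene Il4i1. At the other end, Il2rg held 3 CG dinucleotides and was covered at its start in all 8 libraries. Il1r1 has a start with 5 CG dinucleotides, covered in none, and an inner start with 14, covered in all 8.

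**Figure D3:**
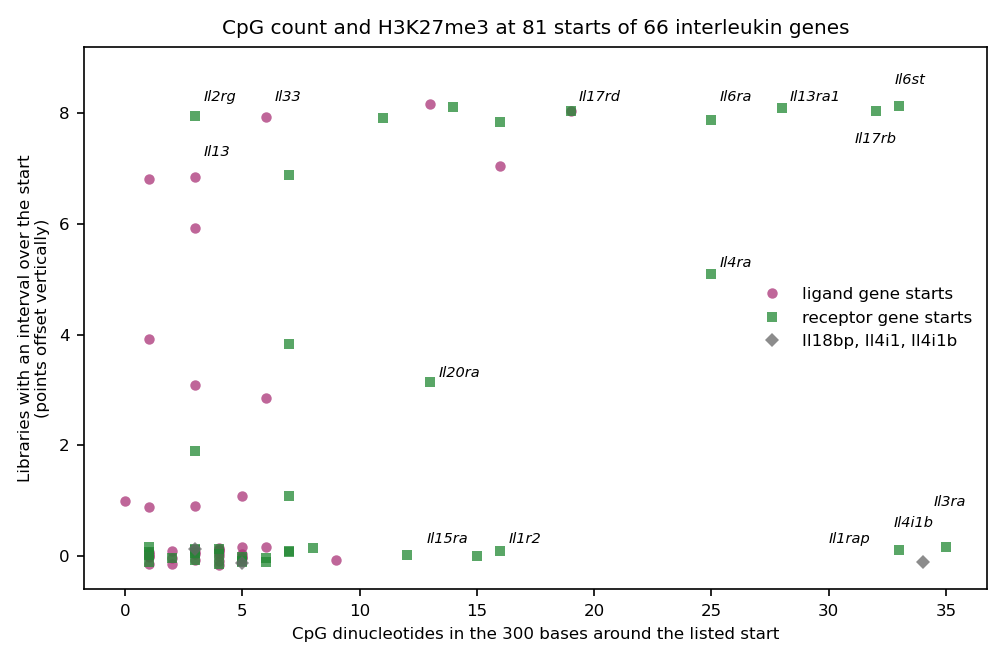
Number of CG dinucleotides in the 300 bases around each of 81 listed interleukin starts (horizontal axis) against the number of libraries with an interval over that start (vertical axis, points offset slightly to separate them). Starts covered in all 8 libraries have a median of 17.5 CG dinucleotides, those covered in 1 to 7 libraries 3 and those covered in none 4. Il3ra (35) and Il1rap (33) are CpG-rich starts without the mark and Il2rg (3) is a CpG-poor start with it.

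In the interleukin gene clusters some genes were marked and their neighbours were not. In the IL-4 cluster on chromosome 11 (chr11:53612460-54267279), Il13 was called in 7 libraries, and Il4, Il5 and Il3 in none, although Il4 and Il13 lie side by side. The mark reached Il13 from its start side, and no summit lay inside the gene in any library. In the IL-10 cluster (chr1:130882074-131024970), Il24 and Il10 at the ends were called in all 8 libraries and Il20 and Il19 between them in none. Of the 8 libraries, 1 had a summit inside Il24 and 7 had a summit inside Il10. The IL-1 receptor cluster (chr1:40084692-40551707) spans 467 kb with 6 receptor genes and held 1 region in all, 18.8 kb wide and inside Il1r1, called in all 8 libraries. The IL-1 ligand cluster (chr2:24153172-24351491) held intervals at Il1f10, which encodes IL-38, in 3 libraries and at Il1f5 in 2, and none at its other 4 genes.

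**Figure D4:**
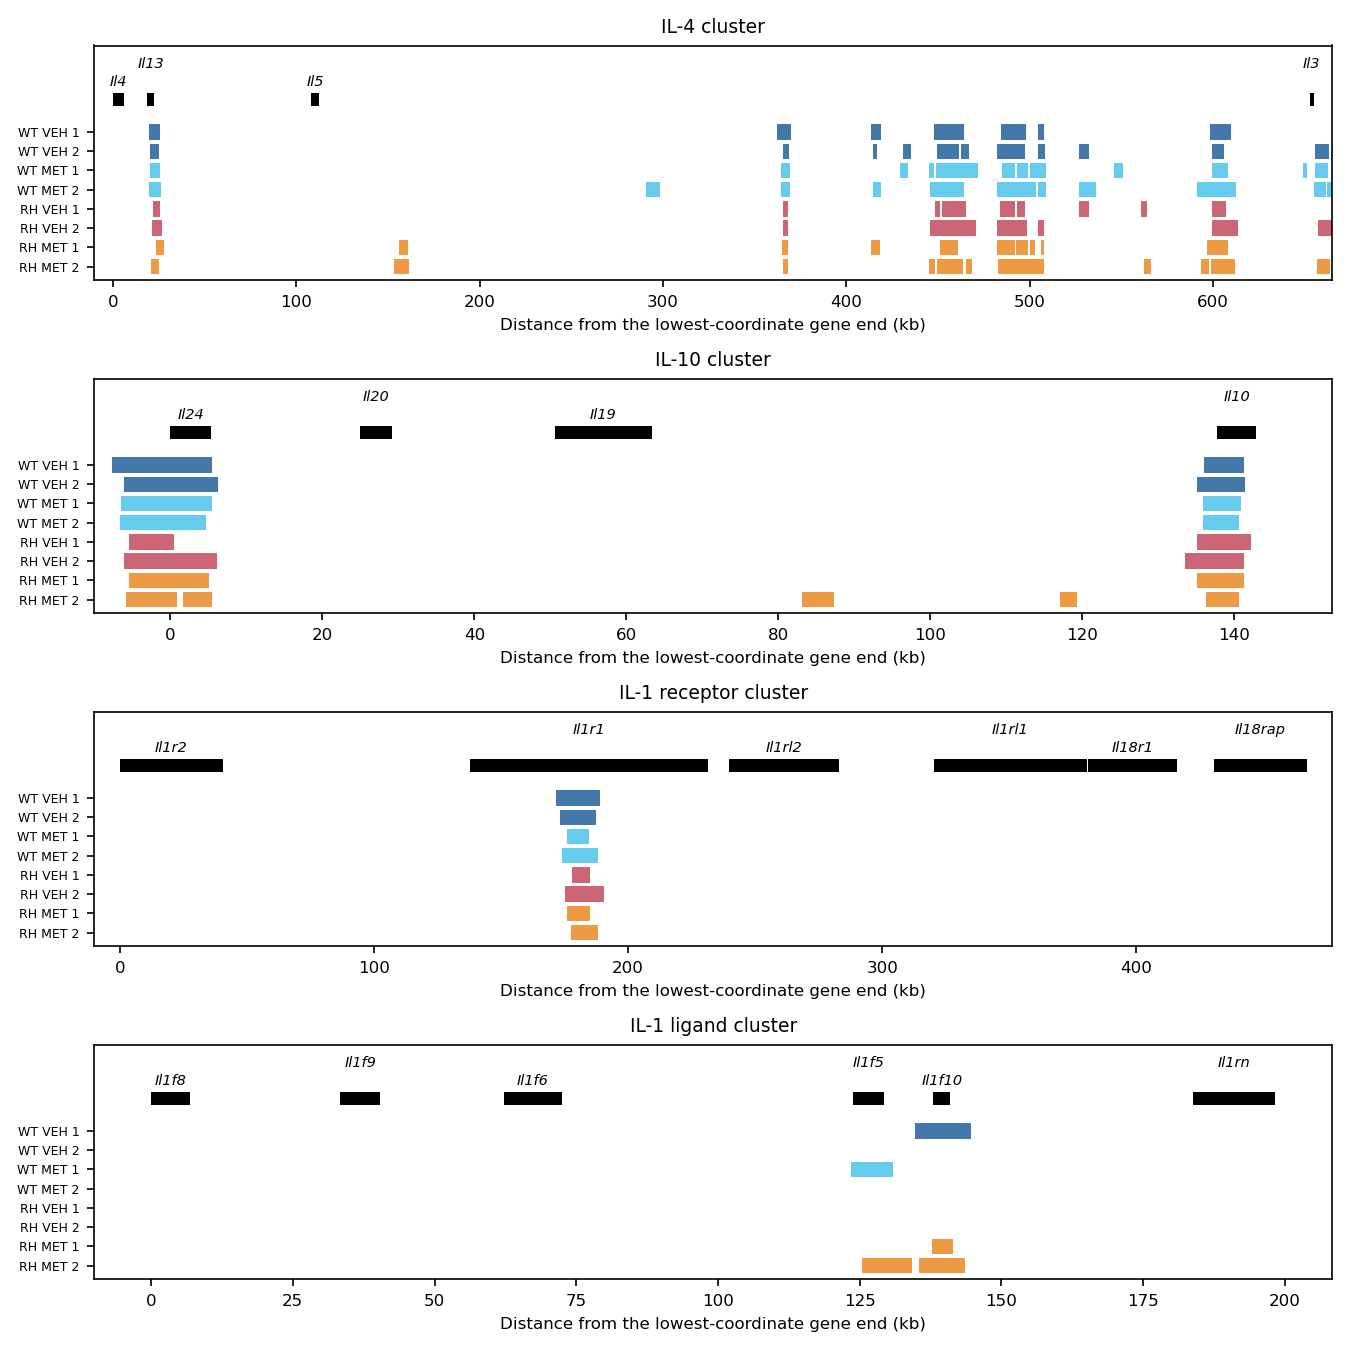
Intervals of the 8 libraries (coloured rows, by group) in 4 interleukin gene clusters, with gene spans in black above them and distance in kb from the lowest-coordinate gene end on the horizontal axis. Il13, Il24, Il10 and Il1r1 carry the mark in 7 or 8 libraries while Il4, Il5, Il20, Il19 and Il1r2 carry none.

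On the X chromosome lie 5 interleukin genes. Of these, 3 were called in all 8 libraries, against 20.3% of all 966 protein-coding genes there. In 1 to 7 libraries it was 1 of the 5, against 37.7%. Il2rg, the common gamma chain of the IL-2, IL-4, IL-7, IL-9, IL-15 and IL-21 receptors, was covered by 79.3% to 100% in all 8 libraries, in a region of 113 kb with Foxo4, Gm614, Med12 and Nlgn3. Its summit heights were only 9 to 16, at or below the 54.1 percentile of the library. A summit lay inside the gene in 2 of the 8 libraries. Cells were taken from females, and whether this cover lay on an inactive X chromosome was not tested. Il13ra1, a chain of the IL-13 receptor, was covered by 1.85% to 39.4%. Il1rapl1 and Il1rapl2, synaptic relatives of the IL-1 receptor accessory chain with spans of 1375 and 1278 kb, had at most 2.67% and 6.79% covered. Intervals over these long genes were scattered, and only 1 of the 31 regions in Il1rapl2, the one at its start, was called in all 8 libraries.

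Of the 19 interleukin genes called in 1 to 7 libraries, 7 overlapped a merged region in which all 8 libraries had an interval (Il31, Il17re, Il12rb1, Il27ra, Il13, Il9 and Il25). The extent of the interval within that region differed between libraries. Il17re and Il27ra each overlapped a further region called in 2 libraries. Il25 lay well inside its merged region, while Il13, Il12rb1, Il17re and Il27ra each extended beyond one end of theirs. The other 12 overlapped regions called in fewer than 8 libraries, and none of these regions held another coding gene. Il9, a T-cell and mast cell cytokine, had 100% of its 2.98 kb covered in WT MET 2 through a 73.8 kb region with Slc25a48, and in the other 7 libraries that domain ended 3.68 to 20.1 kb short. Il31, an itch cytokine, was covered by 57.6% to 100% in 5 libraries and lay 1.98 to 5.38 kb from the nearest interval in the other 3. Il17a, the main IL-17 of helper T cells, was covered by 69.5% to 100% in 6 libraries and had no interval in WT VEH 1 or RH VEH 1. Il12a, a subunit of IL-12, was covered by 39.9% to 52.6% in 7 libraries, with none in WT VEH 1. Il1f5 was called in WT MET 1 and RH MET 2, Il2ra in WT MET 2 and RH MET 1, Il2rb in WT MET 2 and RH MET 2, Il15 in WT MET 1 alone and Il21r in WT MET 1 alone.

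R878H was compared with wild type under vehicle to ask what the mutation does without the drug. Under the rule that both libraries of a group and neither of the other call the gene, 1 of 32 interleukin genes called in these 4 libraries was marked in RH VEH alone (Il4ra, background 0.434% of all genes called there). In WT VEH alone it was 2 of 32 (Il20ra and Il25, background 2.40%). With 2 libraries against 2 the smallest exact p is 0.333, so these are descriptions.

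Il4ra (chr7:125552271-125579474) was covered by 17.4% and 13.7% in RH VEH and by 0 and 0 in WT VEH. In RH MET it was covered by 17.4% and 21.1%, and in WT MET by 0 and 20.3%. All 4 R878H libraries and 1 of 4 wild-type libraries thus had an interval over its start, in a region of 10.4 kb (chr7:125547601-125558000) that holds no other coding gene. Where the interval was missing, the nearest one lay 155 and 154 kb away in WT VEH and 20.9 kb away in WT MET 1. Summit heights were 10 and 20 in RH VEH, 23 and 19 in RH MET and 22 in WT MET 2, between the 38.6 and 68.9 percentiles of their libraries. The limma estimate for R878H minus wild type under vehicle was 15.5 percentage points (SE 6.83, adjusted p = 0.989). With summits under 15 removed, RH VEH 1 lost the interval and Il4ra no longer separated the groups. Over both treatments the difference was 12.3 percentage points (SE 4.83, limma adjusted p = 0.747). It was 17.4 without WT MET 2, the only wild-type library with the interval.

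Il20ra (chr10:19711673-19760053) was the reverse. Its cover was 4.96% and 5.64% in WT VEH, 7.03% and 0 in WT MET, and 0 in all 4 R878H libraries. The interval was small and lay over the start (chr10:19711601-19715400, 3.80 kb), with summit heights of 16, 16 and 15. Elsewhere the nearest interval was 84.1 to 88.3 kb away. The difference under vehicle was −5.30 percentage points (SE 2.29, limma adjusted p = 0.989). Leaving out WT MET 1 or WT MET 2 cannot change this difference. They are outside the comparison and enter only through the shared estimate of spread.

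Il25, the IL-17 family cytokine also called IL-17E (chr14:54932695-54935837), was covered by 100% and 16.1% in WT VEH, 64.8% and 100% in WT MET, 0 and 0 in RH VEH, and 41.6% and 41.6% in RH MET. No summit lay inside it in any library. It sits in a region of 60.8 kb with Slc22a17, Efs, Cmtm5 and Myh6 that all 8 libraries called, and in RH VEH the nearest interval ended 2.10 and 1.90 kb from the gene. The difference of −58.0 percentage points under vehicle had an SE of 30.2 (limma adjusted p = 0.989).

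**Figure D5:**
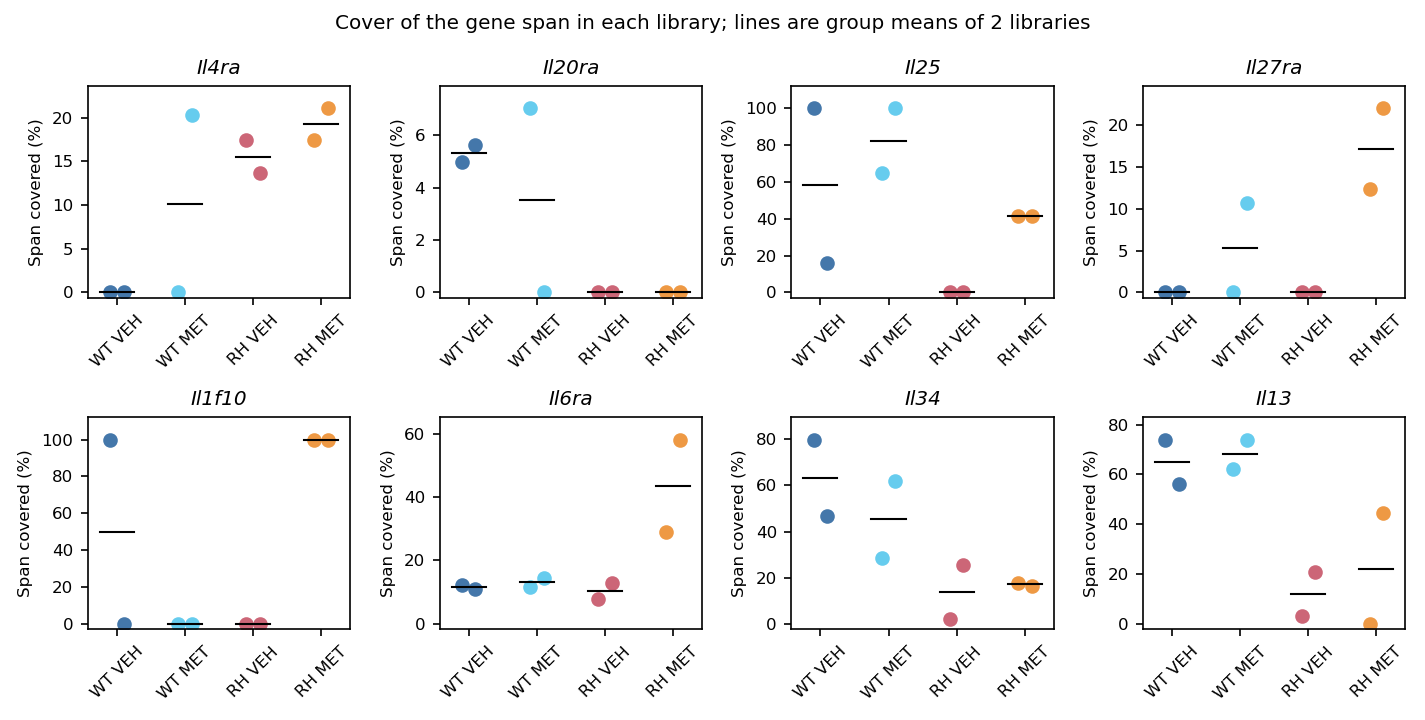
Percent of the gene span covered in each library (points) by group, with a line at the mean of the 2 libraries, for 8 interleukin genes that separated 2 groups by their calls, had non-overlapping cover between genotypes or had a low limma p; vertical axes differ in scale. Il4ra is covered in all 4 R878H libraries and 1 wild-type library, Il20ra in 3 wild-type libraries alone, and Il34 and Il13 are lower in each R878H library than in any wild-type library.

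Over the 4 R878H and 4 wild-type libraries, 2 of the 39 called interleukin genes, Il34 and Il13, had lower cover in every R878H library than in any wild-type library, against a background of 3.08% of 8598 genes, and none had higher cover (background 0.163%). Il13 (chr11:53631323-53634702) was covered by 74.0% and 56.3% in WT VEH, 62.2% and 74.0% in WT MET, 3.02% and 20.8% in RH VEH, and 0 and 44.4% in RH MET. In the library without a call, RH MET 1, the interval began 1.10 kb outside the gene, on the side of its start. The group means were 66.6% ± 8.88 in wild type and 17.1% ± 20.4 in R878H (SD, n = 4 each). The two-sided exact permutation p was 0.0286, or 0.880 after adjustment over 8598 genes. Non-overlapping cover of 4 against 4 libraries always gives this p, the smallest possible. It therefore restates the rule by which Il13 and Il34 were picked and adds no evidence.

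Il34, an alternative ligand of the CSF1 receptor (chr8:110741829-110805949), was covered by 79.8% and 46.8% in WT VEH, 28.6% and 62.0% in WT MET, 2.10% and 25.6% in RH VEH, and 17.8% and 16.5% in RH MET. Its means were 54.3% ± 21.8 in wild type and 15.5% ± 9.78 in R878H (SD, n = 4 each). The exact permutation p, again fixed by the non-overlap, was 0.0286 (adjusted p = 0.880). Summit heights were low, 8 to 16. With each library limited to its 11620 highest intervals the limma difference over both treatments moved from −38.8 to −19.2 percentage points, and with summits under 15 removed to −4.76. Over all 8598 genes, 279 had an unadjusted exact p below 0.05 and 0 passed after adjustment. Cover was lower in R878H for most genes: 22.9% of genes and 33.3% of the 39 interleukin genes had a higher mean in R878H. After scaling to total covered length the shares were 59.8% and 53.8%, so the general direction turned with the scale, while Il13 (−42.3 percentage points) and Il34 (−33.0) stayed lower in R878H. Without RH VEH 1, the limma difference over both treatments was −45.1 for Il13 and −33.0 for Il34.

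The effect of the drug on the mutant was read from RH MET against RH VEH. In RH MET alone, 3 of 35 interleukin genes were marked (Il1f10, Il27ra and Il25, background 2.99%), and in RH VEH alone 0 of 35 (background 0.203%). Without RH VEH 1 no further interleukin gene joined these 3. None of the 3 could leave, since leaving out a library only loosens the rule. Il1f10 (chr2:24291196-24294165) was covered by 100% and 100% in RH MET, 0 and 0 in RH VEH, 0 and 0 in WT MET, and 100% and 0 in WT VEH. One wild-type vehicle library thus carried the interval too, and the summits were low, at the 6.63 and 11.1 percentiles in RH MET and the 25.1 percentile in WT VEH 1. With equal numbers of intervals Il1f10 no longer separated RH MET from RH VEH. Il27ra, the binding chain for IL-27 (chr8:84030286-84042600), was covered by 12.3% and 22.0% in RH MET, 0 and 0 in RH VEH, 0 and 0 in WT VEH, and 0 and 10.7% in WT MET. The mark entered one end of it from a 23.2 kb region over Palm3 and Misp3 that all 8 libraries called and that stopped 0.686 kb short of the gene in both RH VEH libraries. At the other end, a 4.20 kb region shared with Rln3 was called in both RH MET libraries alone.

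Il6ra was marked at its start in all 8 libraries and differed in how much more of the gene was covered. Cover was 28.9% and 58.1% in RH MET, 7.74% and 12.8% in RH VEH, 12.3% and 10.9% in WT VEH, and 11.8% and 14.6% in WT MET. Both RH MET libraries lay above the other 6. The share of all genes with this order was not computed, so it does not single out Il6ra. The added cover came from 3 further regions away from the start, called in 2, 1 and 2 libraries. The limma difference for metformin minus vehicle in R878H was 33.2 percentage points (SE 9.84, adjusted p = 1.00), for Il27ra 17.2 (SE 4.69, adjusted p = 1.00) and for Il1f10 100 (SE 33.0, adjusted p = 1.00). Without RH MET 1 the Il6ra difference was 47.8 percentage points, with RH MET reduced to 1 library. Without WT VEH 1 the Il1f10 difference stayed at 100. WT VEH 1 was the only library outside RH MET with that interval. Leaving it out removed all spread of Il1f10 within groups, so a test without it cannot judge the difference. The interaction, which asks whether metformin acted differently in the 2 genotypes, gave 150 percentage points for Il1f10 (SE 46.6), 31.6 for Il6ra (SE 13.9) and 11.8 for Il27ra (SE 6.63), all with a limma adjusted p of 0.984.

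In wild-type cells no interleukin gene separated metformin from vehicle, 0 of 39 in either direction (background 2.23% for WT MET alone and 0.522% for WT VEH alone). The lowest limma p-values belonged to Il10ra, with 15.3% and 11.4% covered in WT VEH and 29.7% and 29.7% in WT MET, to Il23r, with 0 and 4.64% against 5.80% and 7.25%, and to Il17b, with 100% and 100% against 72.5% and 94.2%. Their adjusted p was 0.980. Under metformin, 1 of 39 interleukin genes was marked in RH MET alone (Il1f10, background 0.921%) and 0 in WT MET alone (background 2.21%). Because the comparisons share libraries, the values of Il1f10 and Il25 in one are not independent of those in another. Over both genotypes, no interleukin gene had non-overlapping cover between the 4 metformin and 4 vehicle libraries (background 1.01% above and 0.0930% below).

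No interleukin gene passed limma with Benjamini-Hochberg adjustment in any of the 7 contrasts. Across the 8598 genes called in at least 1 library, 0.209% passed for R878H against wild type under vehicle, 0.221% for metformin in R878H, 0.268% for metformin in wild type, 0.419% for R878H against wild type under metformin, 0.384% for the interaction, 0.535% for genotype over both treatments and 0.454% for treatment over both genotypes. The numbers of interleukin genes with an unadjusted limma p below 0.05 were 2, 3, 0, 2, 1, 3 and 1 of 39, or 5.13%, 7.69%, 0%, 5.13%, 2.56%, 7.69% and 2.56%. Over all 8598 genes the shares were 4.30%, 2.93%, 4.20%, 4.98%, 3.31%, 6.71% and 4.34% in the same order. The lowest adjusted p of a member was 0.510, for Il13 over both treatments (−49.6 percentage points, SE 12.9).

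Genes that act with the interleukins were read from lists of their signalling partners. Of 23 JAK-STAT genes, 4 (17.4%) were called in all 8 libraries, against 24.8% of all protein-coding genes. They were the kinase Jak3, which binds the common gamma chain, and the feedback inhibitors Socs1, Socs2 and Socs3. Socs3 was covered by 100% in all 8 libraries and Socs1 by 80.6% to 100%. Jak1, Jak2, Tyk2, Stat2, Stat3, Stat4 and Stat5a were among the 15 without an interval (65.2%, against 60.7% of all protein-coding genes). Of 19 genes of MyD88 and IL-17 adaptor signalling, the inhibitory receptor Sigirr and the nuclear regulator Nfkbiz were called in all 8 (10.5%). In none were 10 called (52.6%), including Myd88. Of 21 partner cytokines and receptor chains without an Il symbol, 7 (33.3%) were called in all 8, among them Lif, Lifr, Osmr, Cntfr, Clcf1 and Ifnlr1. Lif and Clcf1 encode cytokines, and Lifr, Osmr and Cntfr encode receptor chains, that work with gp130, while Ifnlr1 binds interferon lambda. Osm and Cntf, ligands of the same receptors, were called in none. Csf2, Csf2ra and Csf2rb, the GM-CSF gene and its receptor genes, were called in none.

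Some of these partner genes separated groups. In WT VEH and not RH VEH, 1 of 11 partner cytokine and receptor genes called there was marked (Csf3r), against 2.40% of all genes. In RH MET and not RH VEH it was 2 of 12 (Tslp and Csf3r) and 1 of 8 JAK-STAT genes (Stat5b), against 2.99%. In RH MET and not WT MET it was 1 of 12 (Tslp) and 1 of 8 (Stat5b), against 0.921%. No gene of MyD88 and IL-17 adaptor signalling separated groups. Csf3r, the G-CSF receptor of granulocytes, was covered by 40.9% and 10.2% in WT VEH, 21.2% and 23.0% in WT MET, 0 and 0 in RH VEH, and 6.50% and 15.6% in RH MET. Tslp, a barrier cytokine that signals with Il7r, was covered by 54.7% and 31.7% in RH MET and 81.9% in WT VEH 2 and was not called elsewhere. Stat5b was covered by 4.34% and 4.60% in RH MET and 5.62% in WT VEH 2. Of 6 progenitor markers called in the vehicle libraries, 2 were marked in WT VEH alone (Kit and Mpo), against 2.40% of all genes. Kit was covered by 7.11% and 7.36% in WT VEH and 0 in RH VEH. Mpo was covered by 51.0% and 28.4% in WT VEH and 0 in all 4 R878H libraries. Gata2 went the other way, with 89.1% to 96.7% covered in the wild-type libraries and 98.2% to 100% in the R878H libraries. Cover of Cd34 and Flt3 overlapped between the genotypes. In WT MET, Kit was covered by 5.89% and 8.58% and Mpo by 0 and 47.2%, and in RH MET Kit by 0.996% and 0. The part of these progenitor genes in the differences at interleukin genes was not tested.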

How the data were processed

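Per the file headers, the authors deposited H3K27me3 intervals, interval summits and merged regions on mm10, called per library. Each summit has a score, its height, deposited as a whole number with no stated unit. The tools bcl2fastq 2.20 and BWA 0.7.12 were used per the submitters' processing notes. How intervals were called, and whether the input entered, is not given in the sources used here. Gene spans and promoters came from RefSeq (GRCm38.p6); 66 of the 83 genes matched a promoter. Percent covered was fitted with limma 3.58.1 (R 4.3.3, trend) over 8598 genes called in at least 1 library, with Benjamini-Hochberg adjustment and a threshold of 0.05, in 1 model of 4 group means, and tested on simulated data. Exact permutation compared 4 libraries with 4. Nothing states separate animals, so p-values measure the spread between libraries, which may be technical. The members and lists were chosen with earlier results of these data known. Named genes were those called in all 8 libraries or in none, those separating a comparison, the 10 others with the largest SD of cover, the 3 with the lowest limma p in each contrast and the extremes of each family; further variable genes were named after their values were seen. Alternatives were equal interval numbers, a summit height of at least 15, 10% cover, a window of 2500 bp around starts, scaling to covered length, filters, the replicate block and leaving out each library. Some list genes are not reported here.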

Additional observations from a re-analysis of the deposited data

How the results depend on the processing

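With summits of at least 15, 10 interleukin genes were called in all 8 libraries instead of 20, 4 of them ligands and 4 receptors; at a cover of at least 10% it was 10, with 4 ligands and 5 receptors, and within 2500 bp of a start 4 ligands. Genes separating metformin from vehicle numbered 6 in R878H and 2 in wild type at the height minimum. Those separating R878H from wild type under metformin were 0 with equal interval numbers and 2 at starts. With low summits removed, RH VEH 1 called only 11 interleukin genes, against 20 to 32 in each other library. The 6 and the 2 therefore cannot be compared as drug effects. Shares of all genes were not computed for these settings or with a library left out. Leaving out 1 library gave 20 to 23 interleukin genes called in all libraries, 44 to 46 in none, 7 to 8 ligands and 11 to 13 receptors in all, and, with only libraries of the comparison left out, separating genes of 3 to 7 (R878H, vehicle), 3 to 5 (metformin, R878H), 0 to 7 (metformin, wild type) and 2 to 6 (R878H, metformin). Without WT VEH 2, Il12a, Il23r, Il17re and Il1f10 joined the first list and 7 genes formed the third, which held 6 without WT MET 1 and 3 without WT MET 2. The second held 5 without RH VEH 2, RH MET 1 or RH MET 2, and the fourth 6 without WT MET 2 and 2 to 3 without WT MET 1, RH MET 1 or RH MET 2.

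The number of all genes past the limma threshold moved more. For R878H under vehicle it was 18, and 3 after scaling (0 higher and 3 lower, against 2 and 16), 7 without a filter and 11 at a mean cover of 5%. For metformin in R878H it was 19, and 9 at a mean of 5%. For metformin in wild type it was 23 (15 higher, 8 lower), and 14 with equal numbers (6 and 8), 53 at the height minimum and 14 without a filter. For R878H under metformin it was 36 (13 higher, 23 lower), 58 at the height minimum and 27 with equal numbers (15 and 12). For the interaction it was 33 (20 and 13), and 15 after scaling (11 and 4), 25 with equal numbers (20 and 5), 14 without a filter and 20 at a mean of 5%. Replicate numbers did not pair the libraries (correlations −0.035 to 0.186), and the replicate block gave 5, 14, 11, 22 and 21 genes in that order. Leaving out 1 library gave 15 to 201, 21 to 185, 27 to 278, 42 to 304 and 129 to 258, since a group of 1 library is assumed to vary like the others. In fits with a library left out, Il11, Il15, Il1f10, Il20ra, Il21r, Il24, Il2rg, Il4ra, Il6ra and Il9 crossed the threshold in some contrast. Those fits cannot judge these genes. No interleukin gene passed in the other alternatives. The difference at Il10 for metformin over both genotypes was −13.7 percentage points, and 8.56 at the height minimum (limma adjusted p = 0.939). Depth is unknown, so neither an absent interval nor a height can be given a counting error, and 2 libraries a group limit every contrast.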
